A study of Mus musculus with 6 samples.

Results

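The lysosomal cathepsins and legumain were examined in neutrophils cultured from the bone marrow of miR-223 null mice and of wild-type mice. The genes were chosen by name, with earlier results of these data known. The choice gave 13 probe sets among the 45101 of an Affymetrix mouse expression array. They measure 8 genes: Ctsb with 4 probe sets, Ctsz with 3, and Ctsc, Ctsd, Ctsh, Ctsl, Ctss and Lgmn with 1 each. There were 3 arrays of miR-223 null cells and 3 of wild-type cells, with replicates numbered 1 to 3 in each genotype. In both genotypes, progenitors had been grown in isotope-labelling medium for 6 days with the cytokines SCF, which sustains progenitors, and G-CSF, which drives granulocyte maturation. SCF was then withdrawn for 42 hours, and live cells were taken with magnetic beads. Strain, sex and age of the mice, the design of the null allele and whether replicates were separate animals or cultures are not given in the sources used here, so p-values measure only the spread between these arrays, which may be technical.

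Cathepsins are proteases that break down proteins in the acidic interior of the lysosome. Most are cysteine proteases of the papain family, made as inactive precursors that mature once a propeptide is cut away. Ctsd is an aspartic protease, and Lgmn encodes legumain, an asparaginyl endopeptidase that can also process cathepsin precursors. Macrophages and other phagocytes are rich in these enzymes, and in neutrophils cathepsin C is the enzyme that activates the serine proteases stored in primary granules.

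The microRNA missing from the null cells is abundant in the granulocyte lineage and represses mRNAs that pair with it. Its mature 3' arm is shown because it is the molecule that separates the genotypes. RefSeq places it at chrX:96242884-96242905 on the plus strand of GRCm38.p6, and capitals mark the seed, bases 2 to 8.
miR-223-3p: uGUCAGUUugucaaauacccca

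The level of miR-223 was not analysed here, and neither were markers of neutrophils, monocytes or other cells, because no table pairing the remaining probe sets with genes was used. The 13 probe sets carry the gene names given with their choice. In bulk RNA, more cells of a kind and more RNA per cell cannot be told apart. Values are log2 intensities as deposited, with array medians of 4.71 to 4.73 and highest values of 14.98 to 14.99. All 13 probe sets were among the 27022 kept after the dimmest were set aside, and 12 lay among the 9008 brightest of these. Poly-A spike-in controls had their highest mean levels on the replicate 1 arrays, 8.92 (null 1) and 8.77 (wild-type 1). The other 4 arrays gave 8.16 to 8.58.

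Cathepsin transcripts were higher in miR-223 null neutrophils at 11 of the 13 probe sets in every replicate pair, as were 21.6% of the 27022 tested, and Ctsl, the gene of cathepsin L, differed most. Ctsl was 2.26-fold higher and passed the test with and without pairing. Probe sets of Ctsb, Ctsd, Ctsh, Ctss and Ctsz were 1.12-fold to 1.58-fold higher. Over all 6 arrays these passed when paired by replicate number, where 4.96% of the 27022 rose, and did not pass unpaired. Ctsc and Lgmn did not pass. The plot of log2 intensity by array shows all 13.

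**Figure D1:**
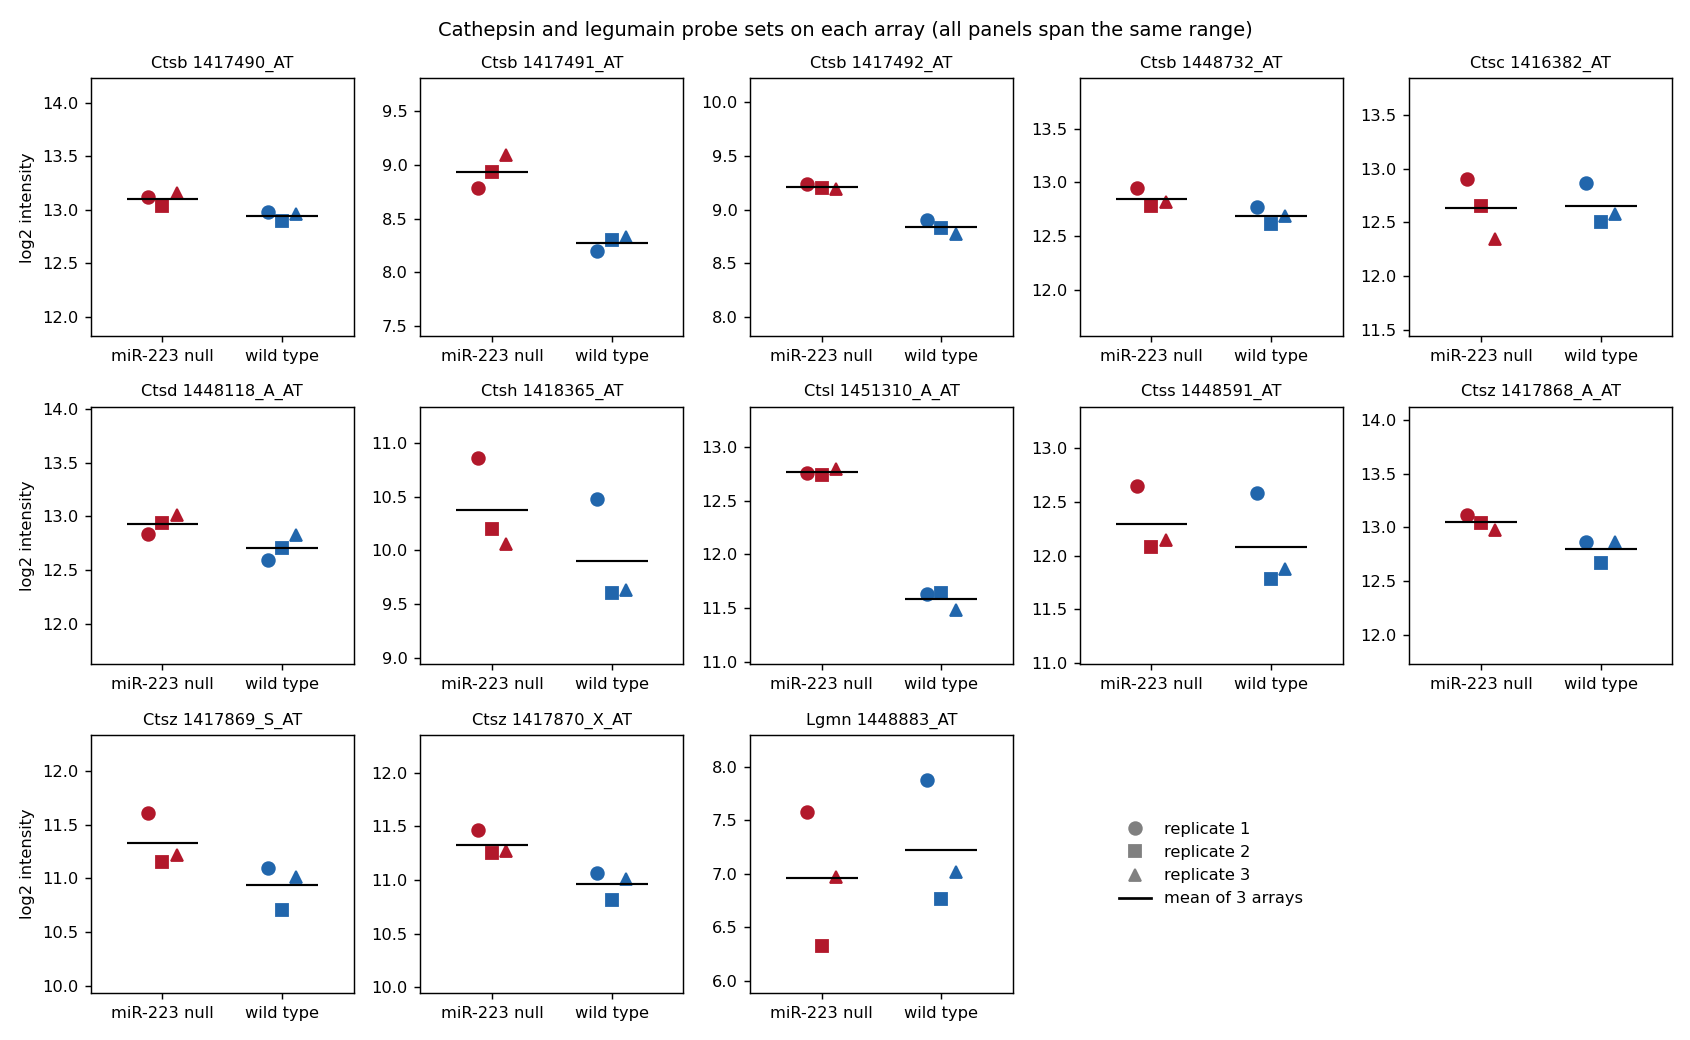
Log2 intensity (vertical axes, all of the same span) of the 13 probe sets on 3 miR-223 null arrays (red, left) and 3 wild-type arrays (blue, right); symbols give the replicate number and lines the mean of 3 arrays. Ctsl shows the widest gap, with null arrays at 12.74 to 12.79 and wild-type arrays at 11.48 to 11.64. The replicate 1 arrays are the highest in both genotypes at 8 of the 13, among them Ctsh, Ctss, Ctsc and Lgmn.

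Cathepsin L is a broad endopeptidase of the papain family. Ctsl (1451310_A_AT) read 12.76, 12.74 and 12.79 on null arrays 1, 2 and 3, against 11.63, 11.64 and 11.48 on wild-type arrays 1, 2 and 3. The lowest null array lay 1.10 log2 units above the highest wild-type array, a gap far wider than the spread within either genotype. The means were 12.76 ± 0.026 in null and 11.59 ± 0.088 in wild-type arrays (SD, n = 3 each). The difference, null minus wild type, was 1.18 log2 units (SE 0.064, limma adjusted p = 0.00444), or 0.000163 as adjusted p with the replicate block. Without the block, 0.141% of the 27022 probe sets rose and 0.0481% fell at an adjusted p under 0.05, and Ctsl was the 1 of the 13 to do so. It held the smallest p of all 27022, and 18 probe sets showed a larger rise. The call was lost without null 2 (adjusted p = 0.0566) or wild-type 2 (adjusted p = 0.0579), where the difference was 1.19 and 1.21 log2 units. In those limma fits 0 of the 27022 passed, with 2064 and 1753 at an unadjusted p under 0.05.

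Cathepsin B cleaves both as an endopeptidase and by removing dipeptides from the carboxyl end of proteins. Its 4 probe sets were all higher in null arrays, each without overlap between the genotypes, but by different amounts. Null arrays lay above all wild-type arrays in 8.12% of the 27022 probe sets. Probe set 1417491_AT read 8.79, 8.93 and 9.09 on null arrays 1 to 3, against 8.20, 8.30 and 8.33 on wild-type arrays 1 to 3. The genotypes were separated by 0.45 log2 units at their nearest arrays. The difference was 0.66 log2 units (SE 0.11), a 1.58-fold level, with a limma adjusted p of 0.0925 without and 0.00258 with the replicate block. Probe set 1417492_AT read 9.24, 9.20 and 9.19 on null arrays, against 8.90, 8.83 and 8.77 on wild-type arrays. That is a 1.30-fold level, a difference of 0.38 log2 units (limma adjusted p = 0.205 without and 0.00944 with the block).

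The 2 brighter Ctsb probe sets gave smaller differences. Probe set 1417490_AT read 13.12, 13.04 and 13.16 on null arrays, against 12.98, 12.89 and 12.96 on wild-type arrays, and 1448732_AT read 12.94, 12.78 and 12.82, against 12.77, 12.61 and 12.68. In both, every null array lay above every wild-type array, by only 0.060 and 0.0088 log2 units at the nearest arrays. Each was 1.12-fold higher, a difference of 0.16 log2 units, with limma adjusted p of 0.339 and 0.462 without the block and of 0.0233 and 0.0240 with it. The difference of 1417491_AT exceeded that of 1417490_AT and 1448732_AT by 0.50 log2 units in each case, and no array of 1 genotype crossed into the other in these ratios. The exact two-sided permutation p was 0.1, and 0.18 after adjustment over the 9 probe set pairs compared within Ctsb and Ctsz. Whether compression of bright signals has a part in this was not tested.

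Cathepsin Z removes single residues from the carboxyl end of proteins. Its 3 probe sets were higher in every null array than in any wild-type array, as were 8.12% of the 27022. Probe set 1417868_A_AT read 13.12, 13.04 and 12.98 on null arrays 1 to 3, against 12.86, 12.66 and 12.87 on wild-type arrays 1 to 3. Probe set 1417869_S_AT read 11.61, 11.15 and 11.22 on null arrays, against 11.10, 10.70 and 11.01 on wild-type arrays. The third, 1417870_X_AT, read 11.47, 11.25 and 11.27, against 11.07, 10.82 and 11.01. The genotypes were nearest in 1417869_S_AT, by 0.054 log2 units.

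The differences of the 3 Ctsz probe sets were 0.25, 0.39 and 0.36 log2 units, levels 1.19-fold, 1.31-fold and 1.29-fold those of wild type. None passed without the block (limma adjusted p = 0.280, 0.417 and 0.243), and all 3 rose with it (limma adjusted p = 0.0248, 0.0113 and 0.00657). The suffixes S and X mark probe sets whose probes can match transcripts of more than 1 gene, so these 2 are less certain measures of Ctsz than the first. Their differences departed from that of 1417868_A_AT by 0.14 and 0.12 log2 units (exact two-sided permutation p = 0.4 and 0.1). The smallest p this test can give is 0.1.

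Cathepsin H trims residues from the amino end of proteins. Ctsh (1418365_AT) read 10.86, 10.20 and 10.06 on null arrays 1 to 3, against 10.47, 9.60 and 9.62 on wild-type arrays 1 to 3. The genotypes overlapped, because wild-type 1 read above null 2 and null 3, yet the null array was the higher in each pair, by 0.38, 0.60 and 0.43 log2 units. The difference was 0.47 log2 units, a 1.39-fold level (95% interval -0.20 to 1.14 without the block and 0.34 to 0.60 with it). The limma adjusted p was 0.627 without and 0.00457 with the replicate block. Unpaired, the difference was 0.23 without null 1 and 0.76 without wild-type 1, while leaving out 1 pair gave 0.41 to 0.52.

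Cathepsin S is the cysteine protease that degrades the invariant chain of MHC class II in antigen-presenting cells. Ctss (1448591_AT) read 12.65, 12.08 and 12.14 on null arrays 1 to 3, against 12.58, 11.79 and 11.87 on wild-type arrays 1 to 3. Its genotypes also overlapped, and the pairs differed by 0.073, 0.30 and 0.27 log2 units. The difference was 0.21 log2 units, a 1.16-fold level, with a limma adjusted p of 0.822 without and 0.0384 with the block. With the block it did not pass after quantile normalization, without the pair of replicate 2 or 3, without the intensity trend (adjusted p = 0.189) or at an adjusted p under 0.01. Unpaired, the difference was 0.032 without null 1, 0.065 without wild-type 2, 0.11 without wild-type 3 and 0.46 without wild-type 1.

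Cathepsin D, the aspartic protease of the group, was measured by 1448118_A_AT. Ctsd read 12.84, 12.94 and 13.02 on null arrays 1 to 3, against 12.60, 12.71 and 12.82 on wild-type arrays 1 to 3. The null arrays all lay above the wild-type arrays, by 0.013 log2 units between null 1 and wild-type 3. The pairs differed by 0.24, 0.23 and 0.19 log2 units. The difference of 0.22 log2 units, a 1.17-fold level, had a limma adjusted p of 0.356 without and 0.00807 with the replicate block.

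Ctsc, the gene of the granule protease activator cathepsin C, did not differ in a constant direction. Its probe set 1416382_AT read 12.90, 12.65 and 12.34 on null arrays 1 to 3, against 12.87, 12.51 and 12.57 on wild-type arrays 1 to 3. The null array was higher by 0.034 and 0.15 log2 units in the first pairs, and lower in the pair of replicate 3, which differed by -0.23 log2 units. The difference was -0.017 log2 units, with a 95% interval of -0.37 to 0.33 without the block and -0.17 to 0.14 with it (limma adjusted p = 0.986 and 0.908). The sign turned with the arrays used, since the difference was 0.13 without null 3 and 0.092 without wild-type 1.

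Legumain was the dimmest of the genes and the most variable. Lgmn (1448883_AT) read 7.58, 6.33 and 6.97 on null arrays 1 to 3, against 7.87, 6.77 and 7.02 on wild-type arrays 1 to 3. The null array was the lower of each pair, with differences of -0.30, -0.44 and -0.046 log2 units, while the genotypes overlapped widely. Of all 27022 probe sets, 25.0% were lower in 3 of 3 pairs. The means were 6.96 ± 0.62 in null and 7.22 ± 0.58 in wild-type arrays (SD, n = 3 each). The difference of -0.26 log2 units had a limma adjusted p of 0.875 without and 0.140 with the block, where the unadjusted p was 0.0303. Unpaired, it was 0.055 without null 2 and 0.065 without wild-type 1. Paired, it kept its sign, at -0.24, -0.17 and -0.37 without the pair of replicate 1, 2 or 3. Bacterial tryptophan control probe sets averaged 2.77 to 2.86 on each array.

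Counted together, 11 of the 13 probe sets, from 6 of the 8 genes, rose with the replicate block, and 0 fell (1, Lgmn, was lower at an unadjusted limma p under 0.05). Over all 27022 probe sets 4.96% rose and 5.05% fell at the same threshold, and 9.34% rose among the 9008 brightest, which hold 12 of the 13. The 3 null arrays lay above all wild-type arrays in 9 of the 13, against 8.12% of all, and in none of the 13 did they lie below, against 8.68%. The null array was higher in 3 of 3 pairs at 11 of the 13, against 21.6% of all probe sets. Probe sets of the same gene share their transcripts, so the 13 are not independent. The genes were also chosen with earlier results of these data known. These counts therefore describe the 13 and do not test them as a group. The median difference of the 13 was 0.25 log2 units, and that of all 27022 was -0.011. Unpaired and without wild-type 1, the median of the 13 was 0.41. The plot of differences with and without the block shows how the intervals narrowed.

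**Figure D2:**
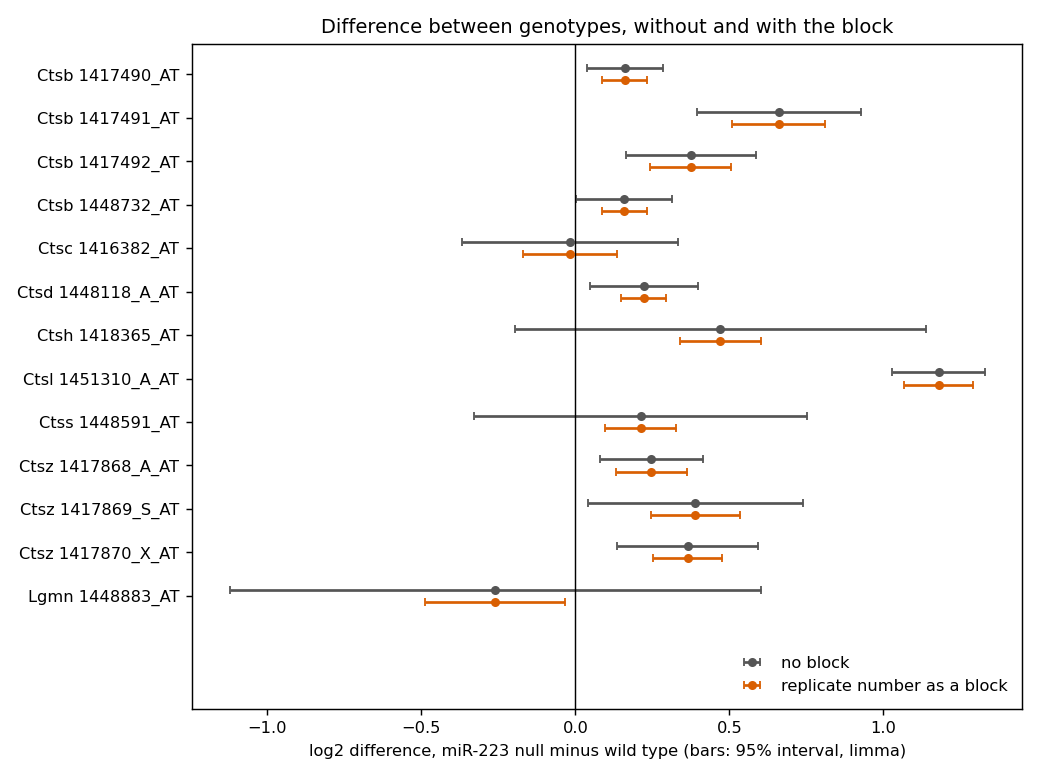
Log2 difference, miR-223 null minus wild type (horizontal axis), of each probe set, with 95% intervals of the limma fit without (grey) and with (orange) the replicate number as a block. Ctsl stands at 1.18, the interval of Ctsh narrows from -0.20 to 1.14 without the block to 0.34 to 0.60 with it, and Ctsc and Lgmn lie below 0.

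The number of cathepsin probe sets that passed depended on the variance model and on replicate 2. With the block but no intensity trend, 2 of the 13 rose, Ctsl and Ctsb 1417491_AT, against 0.518% of all. With the block but without the pair of replicate 2, these 2 and Ctsh rose, 3 of the 13, against 1.42% of all. Without the pair of replicate 1 or of replicate 3, 9 and 10 of the 13 rose, against 3.87% and 4.23% of all. At an adjusted p under 0.01, 6 of the 13 rose with the block, against 1.49%. With no filter, with the filter at the 60th percentile and after quantile normalization, 11, 11 and 10 of the 13 rose with the block, against 2.71%, 8.17% and 5.01% of the probe sets tested. With both replicate 1 arrays left out and no block, a fit chosen after seeing the data, 6 of the 13 rose, against 2.36% of all. These were Ctsl, Ctsb 1417491_AT and 1417492_AT, Ctsh, Ctss and Ctsz 1417870_X_AT.

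**Figure D3:**
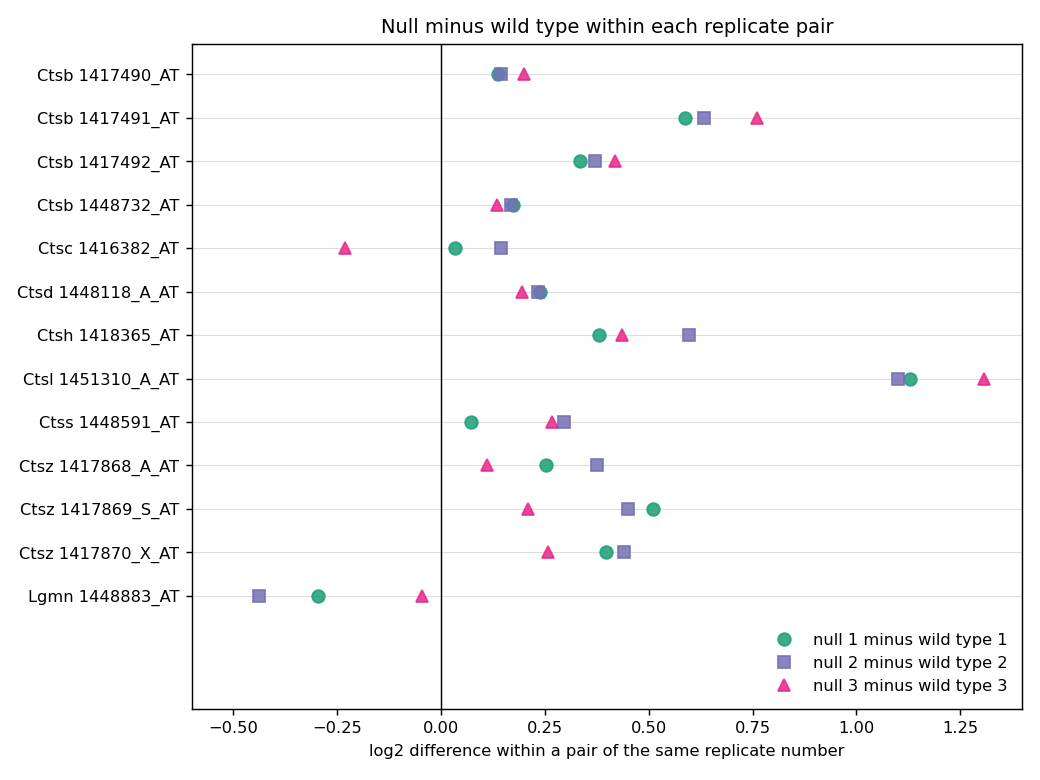
Log2 difference (horizontal axis) between the miR-223 null and the wild-type array of the same replicate number, for each probe set; each symbol is 1 pair. In 11 probe sets all 3 pairs lie right of 0, Ctsl lies between 1.10 and 1.31, Ctsc falls on both sides of 0 and Lgmn lies left of it.

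The genes differed in how far the replicate 1 arrays stood from the others. Lgmn on replicate 1 exceeded the mean of replicates 2 and 3 by 0.92 log2 units in null and by 0.98 in wild-type cells. For Ctsh the offset was 0.73 in null and 0.86 in wild-type cells, and for Ctss it was 0.54 in null and 0.75 in wild-type cells. These 3 of the 13 had a mean offset of 0.5 log2 units or more, as did 2.72% of all 27022 probe sets.

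Ctsc showed an offset of 0.40 in null and 0.33 in wild-type cells. For Ctsl it was -0.0050 in null and 0.070 in wild-type cells, and Ctsd ran the other way, with -0.14 in null and -0.17 in wild-type cells. Replicate 1 was the highest array of both genotypes at 8 of the 13, against 28.4% of all probe sets. The labels do not say what the replicate number stands for, and whether cell composition, RNA input or the day of culture has a part in these offsets was not tested.

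**Figure D4:**
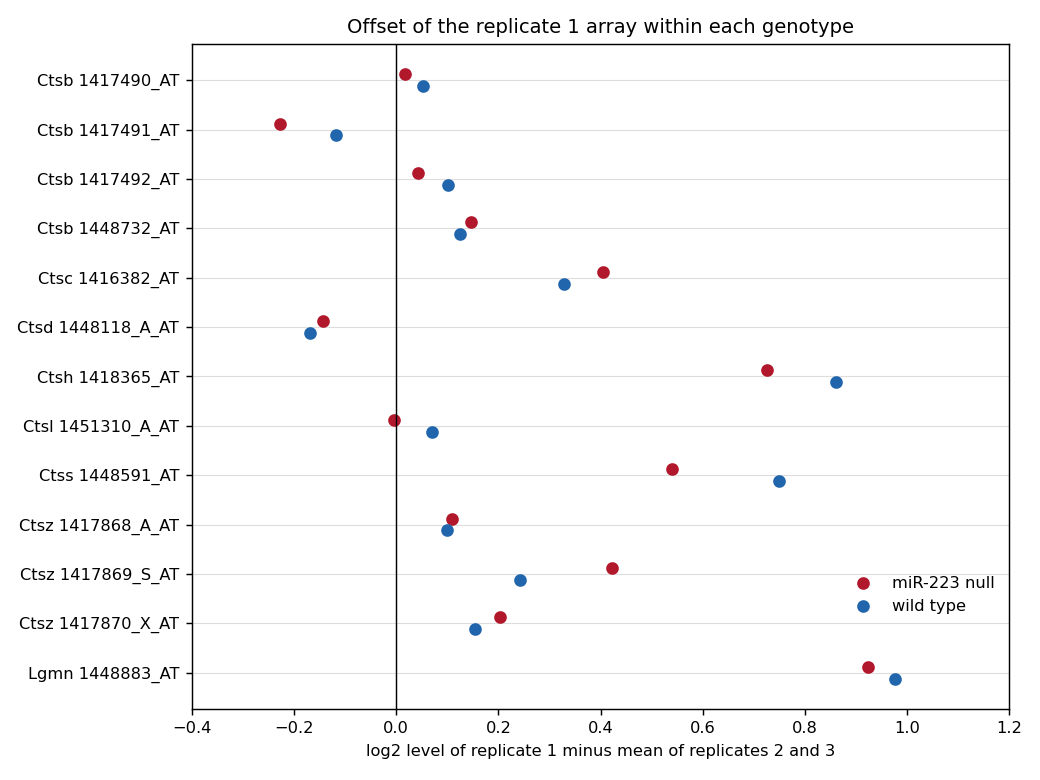
Log2 level on the replicate 1 array minus the mean of replicates 2 and 3 (horizontal axis) for each probe set, in miR-223 null (red) and wild-type (blue) cells. Lgmn, Ctsh and Ctss lie at 0.54 to 0.98 in both genotypes, while Ctsl lies near 0 and Ctsd at -0.14 and -0.17.

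Likeness of pattern was taken as the root mean square difference over the 6 arrays between values centred on their own means. The 2 probe sets nearest to Ctsl were 1455632_AT and 1449557_AT, at 0.070 and 0.086 log2 units, where the median over all was 0.62. Their differences were 1.15 and 1.14 log2 units (limma adjusted p = 0.0123 for each). A rise near that of Ctsl follows from picking by closeness to it, so these values are not separate support. The nearest cathepsin to Ctsl was Ctsb 1417491_AT, at rank 112 of 27021, and the farthest probe set of the group was Lgmn, at rank 26543. Nearest to Lgmn within the group was Ctss, at rank 421 of 27021 and a distance of 0.33 log2 units. The files do not pair the unnamed identifiers with genes.

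Promoter letters were read because several of the genes were higher together. RefSeq promoter entries on GRCm38.p6 were matched for 6 of the 8 genes, with 7 entries in all, and the 250 bases before each start were searched on both strands for CACGTG, the core bound by lysosomal regulators of the TFEB family among many other factors. Ctsb and Ctsh had no entry and were not searched. CACGTG was found in 3 of the 7 windows, from Ctsd, Ctsl and Lgmn, the last with 2 entries. The windows of Ctsc, Ctss and Ctsz lacked it. Over all 32851 windows, 6.02% held it. The longer TCACGTGA, which contains it, was found in the Ctsd window and in 0.785% of all. The Ctsd window is shown because it alone held the longer word. It lies at chr7:142387828-142388077 on the minus strand, and capitals mark CACGTG, which starts 245 and 98 bases before the gene start. A match is a description of these letters and not a site of binding, and Lgmn, which did not pass, held one as well. The Ctsl window ends in a pyrimidine-rich run and AG, as sequence before an internal exon does, so it may not be the promoter.
Ctsd promoter: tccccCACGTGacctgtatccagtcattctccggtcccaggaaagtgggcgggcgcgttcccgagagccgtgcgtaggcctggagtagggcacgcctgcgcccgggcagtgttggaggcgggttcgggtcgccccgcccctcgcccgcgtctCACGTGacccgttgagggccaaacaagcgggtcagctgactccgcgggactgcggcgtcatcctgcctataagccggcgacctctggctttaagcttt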

How the data were processed

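Biotin-labelled total RNA was hybridised to 6 Affymetrix arrays, per the labels. The deposited table holds log2 intensity values of 45101 probe sets, read as base-2 logarithms from their range. The submitters' processing notes name GCOS, while background correction and normalization are not given in the sources used here. Values were used as deposited. Array medians were alike (4.71 to 4.73), so a difference was read as relative to the rest of the array.

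After 64 control probe sets were set aside, the 27022 of 45037 with a mean at or above the 40th percentile (4.08) were fitted with limma 3.58.1 in R 4.3.3 (eBayes with an intensity trend, two-sided, Benjamini-Hochberg over all 27022, threshold 0.05). The main fit had no covariate, and the replicate number was a block in the alternative. Deviations from the genotype mean correlated at 0.70, 0.30 and 0.48 between arrays of the same number, each above the minimum of 0.1 set for pairing. Null 3 with wild-type 2 reached 0.41, so the pairing of replicates 2 and 3 rests on the numbers. Intervals are 95% and unadjusted. The code was tested on simulated data.

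The genes and gene lists were chosen with earlier results of these data known. All 13 probe sets are named, and likeness was taken for the largest rise and fall. Lists of 7 lysosomal gene groups and 6 cell type marker groups were not analysed here, because no table pairing their genes with probe sets was used. Alternatives were filters, normalization, variance model, threshold and leaving out arrays. The number of arrays limits the precision.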

Additional observations from a re-analysis of the deposited data

How the results depend on the processing

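Without the replicate block 1 of the 13 probe sets, Ctsl, rose (against 0.141% of all 27022), and with it 11 did (against 4.96%). Of the paired fits, those with no filter and with the filter at the 60th percentile also gave 11 (against 2.71% and 8.17% of all probe sets tested), quantile normalization gave 10 (5.01%), an adjusted p under 0.01 gave 6 (1.49%) and dropping the intensity trend gave 2 (0.518%). Leaving out the pair of replicate 1, 2 or 3 gave 9, 3 and 10 (3.87%, 1.42% and 4.23%). Leaving out both replicate 1 arrays with no block, chosen after seeing the data, gave 6 (2.36%). Leaving out 1 array without the block gave 0 to 1 (0 without null 2 or wild-type 2, where limma gave 2064 and 1753 of all 27022 at an unadjusted p under 0.05), and the number that fell was 0 in every fit run. The median difference was 0.25 log2 units and lay between 0.22 and 0.41 when 1 array was left out, the highest without wild-type 1. With 1 array left out and no block, Ctsc ranged from -0.15 to 0.13 and Lgmn from -0.57 to 0.065. Ctsc turned to 0.13 without null 3, to 0.092 without wild-type 1 and, with the block, to 0.090 without the replicate 3 pair. Lgmn turned to 0.055 without null 2 and to 0.065 without wild-type 1. The other 11 probe sets kept their direction in all 22 alternatives run, but much of this was fixed in advance. With all 6 arrays, the block, the filters, the variance model and the threshold leave the difference itself unchanged. In 9 of the 13 the genotypes did not overlap, so leaving out arrays could not turn them. The cause of the changes between fits was not tested. Lgmn had the lowest signal of the 13 and was kept by both filters.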
